A study of Mus musculus with 12 samples.

Results

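The genes described here are markers of T cells and natural killer (NK) cells, measured in whole mouse liver. The list held 10 symbols, Nkg7, Cd5, Thy1, Cd3e, Cd3g, Cd8a, Cd4, Lck, Gzma and Gzmb, and the genes were found by their symbol in the platform's table of probes. Of the 10, 9 had a probe and are described. Lck was dropped because the table pairs no probe with it. Cd8a had 2 probes and the other 8 genes 1 each, which makes 10 of the 26423 probes and 9 of the 19084 named genes on the array. Total RNA was measured on 12 single-colour arrays, 3 for each of 4 groups of male C57BL/6 mice. PTFC mice were fed a high-fat diet for 24 weeks and were given PTFC (pure total flavonoids from Citrus), the extract under study, by gavage during the last 18 weeks, after 6 weeks of the diet alone, with a daily dose of 50 mg per kg. HFD24 mice were fed the high-fat diet for 24 weeks and HFD16 mice for 16 weeks. ND mice were fed a normal diet for 24 weeks. Every group without PTFC received saline. The high-fat diet held 36.1% fat with 2% cholesterol, bile salt and egg yolk powder added, against 12.3% fat in the normal diet. Mice were 31 to 33 weeks old in PTFC and HFD24, 23 to 25 weeks in HFD16 and 30 to 33 weeks in ND, so that age differs wherever HFD16 is compared. The labels do not say that each array holds RNA of a separate mouse, so the p-values cover the variation among these 12 samples alone, part of which may be technical.

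A T cell recognises antigen through a receptor whose signal is carried by the CD3 chains, and the coreceptors CD4 and CD8 divide T cells into helper and cytotoxic lineages. Cytotoxic T cells and NK cells kill target cells by releasing granules that hold proteases called granzymes. The liver is rich in NK cells and in resident T cells, and both are known to accumulate and change in fatty liver disease. In whole tissue, fewer cells of a type and less RNA per cell cannot be told apart, so that each value below is a level in liver RNA.

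The deposited values are linear probe intensities. For the tests they were put on a log2(intensity + 1) scale and quantile normalized, and the folds below are on this scale. Over the 19084 named genes, arrays of the same group correlated at r = 0.981 to 0.993 (12 pairs of arrays). Arrays of different groups correlated at r = 0.961 to 0.989 (54 pairs). Array medians lay between 249 and 408. No hepatocyte marker was at 0 on any array, and the summed normalized intensity of the 8 measured hepatocyte markers ranged from 1853870 to 1944720 in PTFC, 1727940 to 1821340 in HFD24, 1676230 to 1910730 in HFD16 and 1844440 to 1948140 in ND.

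The 3 HFD16 arrays stood apart from one another for the T and NK cell markers. HFD16 replicate 2 was the highest of the 12 arrays for 8 of the 9 genes, all but Cd3e, whereas HFD16 replicate 1 was the lowest of its group for 9 of 9. Measured from the ND mean, the median gene of the 9 lay 0.29 log2 units higher on HFD16 replicate 1, 2.39 on replicate 2 and 1.40 on replicate 3. The same median was 0.19 to 0.32 on the PTFC arrays, 0.85 to 1.82 on the HFD24 arrays and -0.03 to 0.10 on the ND arrays. Markers of leukocytes in general followed the same order of HFD16 arrays, with medians of 0.35, 2.74 and 1.74 for 8 genes, and so did macrophage and monocyte markers, with 0.49, 2.78 and 1.87 for 13 genes. The SD over the HFD16 arrays was the largest of the 4 groups for 8 of the 9 genes, all but Cd3e, and the counts of genes in the comparisons below are given with and without the group.

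**Figure D1:**
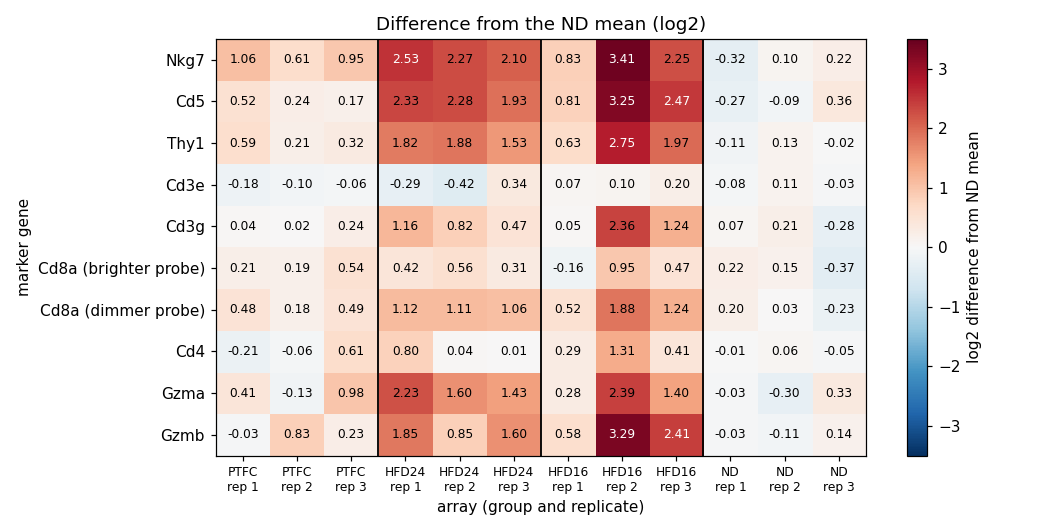
Difference of each array from the ND mean (log2) for the 10 probes of the 9 marker genes, with arrays in columns by group and genes in rows. The 3 HFD24 columns are high for Nkg7, Cd5, Thy1, Gzma and Gzmb, HFD16 replicate 2 is the highest column for every gene but Cd3e, and the PTFC columns lie near ND for most genes.

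Among the surface molecules, Nkg7, a membrane protein of NK and cytotoxic T cell granules, Cd5, an inhibitory coreceptor of T cells, and Thy1, a glycoprotein of T cells and some stromal cells, followed one pattern. Nkg7 had deposited intensities of 484, 329.6 and 457 in PTFC, 983, 948 and 858 in HFD24, 288, 2164 and 843 in HFD16, and 186, 241 and 204 in ND. Cd5 had intensities of 81.1, 59.9 and 63.9 in PTFC, 161, 219 and 168 in HFD24, 61.4, 423 and 209.6 in HFD16, and 48.3, 51.7 and 54.4 in ND. Thy1 had intensities of 842, 617 and 719 in PTFC, 1591, 1819.8 and 1477 in HFD24, 667, 3483 and 1818 in HFD16, and 504, 589 and 434 in ND. For all 3 genes every HFD24 array lay above every PTFC array and every ND array, and the lowest HFD16 array, replicate 1, still lay above the highest ND array. Of the 3 genes, Cd5 had every PTFC array above every ND array on the deposited scale but not after normalization, while Nkg7 and Thy1 did on both. By group mean of normalized log2 intensity, Nkg7 ran from HFD24 (9.91 ± 0.22, SD, n = 3) and HFD16 (9.77 ± 1.29) over PTFC (8.48 ± 0.23) to ND (7.61 ± 0.29). Cd5 ran from HFD24 (7.67 ± 0.22) and HFD16 (7.67 ± 1.24) over PTFC (5.80 ± 0.19) to ND (5.49 ± 0.32). Thy1 ran from HFD16 (10.73 ± 1.07) and HFD24 (10.68 ± 0.19) over PTFC (9.31 ± 0.20) to ND (8.94 ± 0.12). In each gene the arrays of HFD24 and HFD16 overlapped, and the spread in HFD16 came from its replicates 1 and 2.

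The granule proteases Gzma and Gzmb, which enter target cells and trigger their death, were also higher on the HFD24 arrays than on the ND arrays. Gzma, granzyme A, had intensities of 186, 113 and 268 in PTFC, 407, 334 and 299 in HFD24, 106, 585 and 247 in HFD16, and 130.4, 108 and 126 in ND. Every HFD24 array was above every PTFC and every ND array, and HFD16 replicate 1 was below all of ND on the deposited scale. Gzmb, granzyme B, had normalized log2 intensities of 6.37, 7.24 and 6.64 in PTFC, 8.26, 7.25 and 8.01 in HFD24, 6.99, 9.70 and 8.82 in HFD16, and 6.38, 6.30 and 6.55 in ND. The lowest HFD24 array and the highest PTFC array of Gzmb were nearly level, so that the separation of these groups rested on a margin far below their spread.

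The receptor and coreceptor chains did not share one pattern. Cd3g, the gamma chain of the CD3 complex, had normalized log2 intensities of 7.37, 7.35 and 7.57 in PTFC, 8.49, 8.15 and 7.80 in HFD24, 7.38, 9.69 and 8.57 in HFD16, and 7.40, 7.54 and 7.05 in ND. HFD24 lay above PTFC and ND without overlap, while HFD16 replicate 1 fell inside the range of ND. Cd3e, the epsilon chain of the same complex, had 11.38, 11.46 and 11.50 in PTFC, 11.27, 11.13 and 11.90 in HFD24, 11.63, 11.66 and 11.76 in HFD16, and 11.48, 11.67 and 11.52 in ND. Its HFD24 arrays enclosed the range of the other groups, and no comparison with HFD24 separated the arrays. The sequence of the Cd3e probe was not used here, so what it detects was not checked, and its values are those of the probe that the platform table pairs with Cd3e. Cd4, the coreceptor of helper T cells, had 6.34, 6.49 and 7.16 in PTFC, 7.35, 6.59 and 6.56 in HFD24, 6.84, 7.86 and 6.96 in HFD16, and 6.54, 6.61 and 6.50 in ND. Only HFD16 was above ND on every array for Cd4, and with Cd5 it belonged to the dimmest 25% of genes.

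Cd8a, the alpha chain of the coreceptor of cytotoxic T cells, gave different answers on its 2 probes. The brighter probe had normalized log2 intensities of 7.58, 7.56 and 7.91 in PTFC, 7.79, 7.93 and 7.69 in HFD24, 7.21, 8.33 and 7.84 in HFD16, and 7.60, 7.52 and 7.00 in ND. The dimmer probe had 7.19, 6.89 and 7.20 in PTFC, 7.83, 7.83 and 7.77 in HFD24, 7.23, 8.59 and 7.96 in HFD16, and 6.91, 6.74 and 6.49 in ND. After normalization HFD24 stood clear of both PTFC and ND on the dimmer probe, and on the brighter one PTFC and HFD24 overlapped. On the deposited scale PTFC and HFD24 overlapped on the dimmer probe too. Its intensities were 186.1, 135.3 and 186.4 in PTFC and 161.5, 228.2 and 217.0 in HFD24. PTFC against HFD24 did not pass on the dimmer probe, at -0.71 ± 0.26 (log2, SE; limma adjusted p = 0.118). In HFD24 against ND the dimmer probe differed by 1.09 ± 0.26 (log2, SE, n = 3 per group; limma adjusted p = 0.0134 over all probes), and in HFD16 against ND by 1.21 ± 0.26 (limma adjusted p = 0.0101). The brighter probe, which stands for the gene in all counts below, differed by 0.43 ± 0.25 in HFD24 against ND (limma adjusted p = 0.255) and 0.42 ± 0.25 in HFD16 against ND (limma adjusted p = 0.261).

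**Figure D2:**
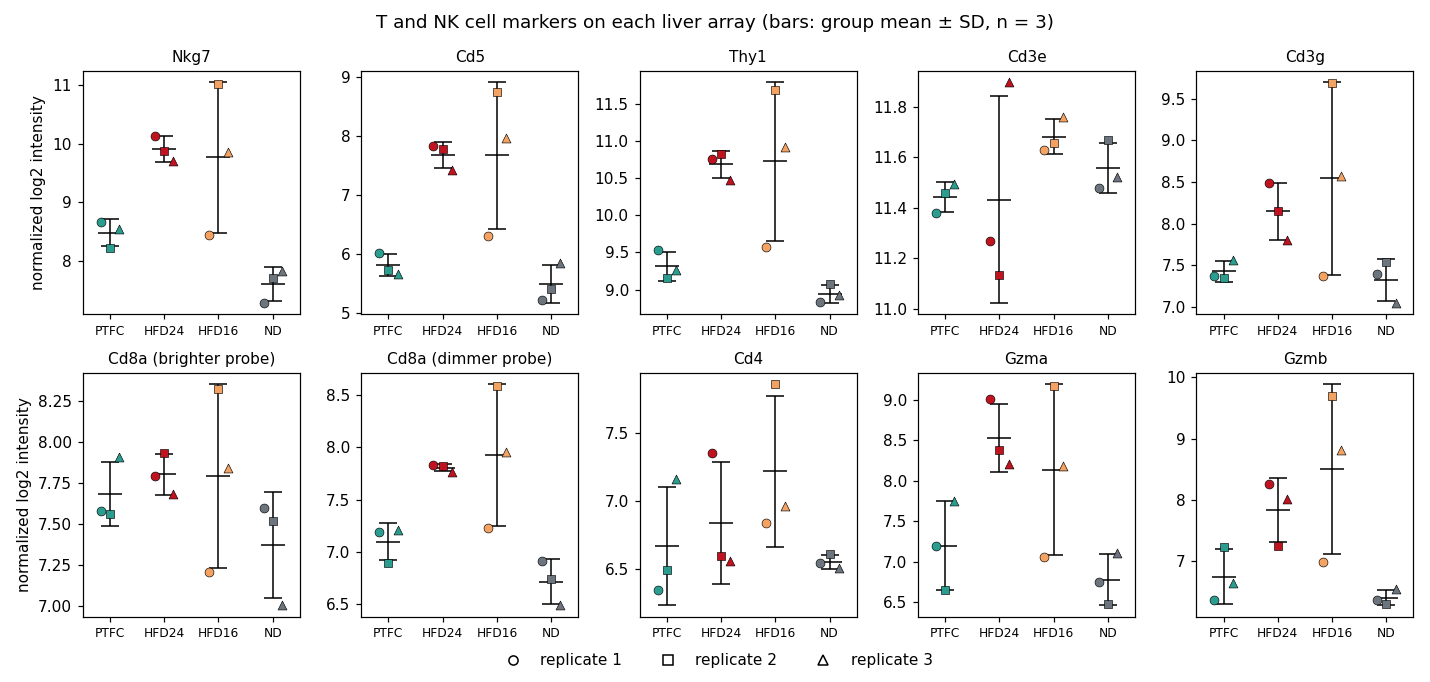
Normalized log2 intensity of each marker on every array (points, shaped by replicate) with the group mean and SD (bars, n = 3), groups on the x axis. HFD24 lies above PTFC and ND for Nkg7, Cd5, Thy1, Cd3g, Gzma and Gzmb, HFD16 spans up to 2.71 log2 units in Gzmb, and the y axes differ between panels.

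High-fat feeding for 24 weeks was set against the normal diet to show the effect of the diet on liver RNA. Nkg7, Cd5, Thy1 and Gzma rose in HFD24 against ND, 4.93-fold, 4.53-fold, 3.34-fold and 3.36-fold. These 4 of 9 genes passed the test upward and 0 downward by limma, where 9.97% of all genes passed upward and 8.28% downward. The log2 differences were 2.30 ± 0.45 for Nkg7 (SE, n = 3 per group; limma adjusted p = 0.00430), 2.18 ± 0.44 for Cd5 (limma adjusted p = 0.00499), 1.74 ± 0.37 for Thy1 (limma adjusted p = 0.00709) and 1.75 ± 0.43 for Gzma (limma adjusted p = 0.0144). Gzmb at 1.43 ± 0.51 (limma adjusted p = 0.0667) and Cd3g at 0.82 ± 0.41 (limma adjusted p = 0.188) did not pass. Neither did Cd4 at 0.28 ± 0.30 (limma adjusted p = 0.543) or Cd3e at -0.12 ± 0.19 (limma adjusted p = 0.689), and for Cd3e the 95% interval of the difference ran from -0.53 to 0.28. The 3 HFD24 arrays lay above the 3 ND arrays without overlap for 7 of 9 genes after normalization, against 15.5% of all genes, and for 6 of 9, all of these but Cd8a, on the deposited scale, against 12.2%. An exact two-sided permutation test gives p = 0.1 for such a gene, the smallest that 3 against 3 arrays allow. The median difference of the 9 genes was 1.43 and that of all genes -0.06. When the HFD16 arrays were left out of the fit, a setting added after the data were seen, 6 of 9 genes rose, with 10.1% of all genes passing upward, and Cd3g (limma adjusted p = 0.0174) and Gzmb (limma adjusted p = 0.00374) joined the 4. Gzma lost its call without ND replicate 2 (limma adjusted p = 0.0598) and without HFD24 replicate 1 (limma adjusted p = 0.0655).

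Other cell types moved in the same comparison. Of 8 markers of leukocytes in general 7 rose, among them Ptprc, the common leukocyte antigen CD45, at 1.62 ± 0.40 (log2 difference, SE; limma adjusted p = 0.0148). The summed normalized intensity of the 8 was 25165.5 to 31953 in PTFC, 55383.5 to 75278.3 in HFD24, 18059.5 to 103194 in HFD16 and 12832.7 to 19249.4 in ND. Of 13 macrophage and monocyte markers 13 rose, with a median of 2.43, and their sum was 66150.2 to 79026.9 in PTFC, 104758 to 155581 in HFD24, 35411.5 to 171585 in HFD16 and 17407.8 to 32211.2 in ND. B and plasma cell markers split, with Ms4a1 and Cr2 higher and Fcer2a, Pax5 and Cd79a lower out of 11, and a median of -0.03. Their sum was 11109 to 12360 in PTFC, 9225.39 to 11567.2 in HFD24, 9400.37 to 13868.4 in HFD16 and 10335.2 to 11473.3 in ND. No marker of these 3 lists was at 0 on any array, and the part of other cells in the levels of the T and NK cell markers was not tested. The deposited values of each array were whole multiples of a step of its own. The step was largest in ND, 1.23 to 1.46, against 0.855 to 1.12 in HFD24. On HFD16 replicates 1, 2 and 3 it was 1.04, 0.675 and 1.05. Replicate 2, the highest array for most of the marker genes, thus had the smallest step of all arrays. With the log2 of that step as a covariate no marker gene passed in HFD24 against ND, and Nkg7 stood at 1.50 (limma adjusted p = 0.0832).

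**Figure D3:**
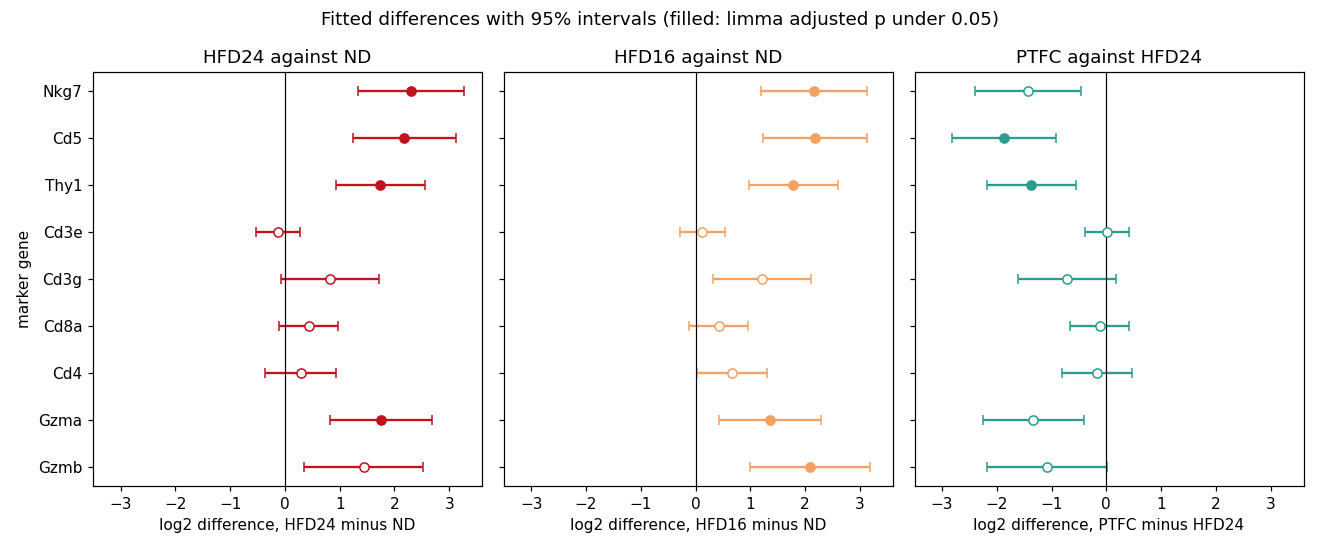
Log2 difference of each marker (points) with its 95% interval from the limma fit (bars) in HFD24 against ND, HFD16 against ND and PTFC against HFD24, with filled points at an adjusted p under 0.05. Nkg7, Cd5, Thy1 and Gzma are filled in both comparisons with ND, Gzmb in HFD16 against ND, Cd5 and Thy1 in PTFC against HFD24, and Cd3e lies near 0 in each.

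PTFC was set against HFD24, the same diet and duration without the extract, to show what the extract changed. Cd5 and Thy1 fell in PTFC, and were 3.65-fold and 2.59-fold lower than in HFD24. These 2 of 9 genes passed downward and 0 upward by limma, where 3.04% of all genes passed downward and 2.96% upward. The difference was -1.87 ± 0.44 for Cd5 (log2, SE, n = 3 per group; limma adjusted p = 0.0322) and -1.37 ± 0.37 for Thy1 (limma adjusted p = 0.0488). Nkg7 at -1.43 ± 0.45 (limma adjusted p = 0.0754), Gzma at -1.33 ± 0.43 (limma adjusted p = 0.0820), Gzmb at -1.09 ± 0.51 (limma adjusted p = 0.206) and Cd3g at -0.72 ± 0.41 (limma adjusted p = 0.309) did not pass. Cd4 stood at -0.17 ± 0.30, Cd8a at -0.12 ± 0.25 and Cd3e at 0.01 ± 0.19, the last with a 95% interval of -0.39 to 0.42. After normalization PTFC lay below HFD24 without overlap for 6 of 9 genes, against 15.2% of all genes. On the deposited scale it was 4 of 9, against 6.65%, since the arrays of Cd3g and Gzmb overlapped there. The median difference was -1.09, against 0.01 for all genes. Both calls rested on the arrays included. Cd5 lost its call when any one HFD24 or PTFC array was left out (limma adjusted p = 0.0560 to 0.147), and so did Thy1 (limma adjusted p = 0.0789 to 0.188), which also lost it without ND replicate 1 (0.0610) or 2 (0.0623) or HFD16 replicate 3 (0.0653). Without the HFD16 arrays 5 of 9 genes fell, with 4.60% of all genes passing downward, namely Nkg7 (limma adjusted p = 0.00352), Cd5 (0.00149), Thy1 (0.00215), Gzma (0.0205) and Gzmb (0.0348). On the authors' scale, with no normalization between arrays, 0 of 9 passed by limma, and Cd5 stood at -1.40 (limma adjusted p = 0.0725). With the log2 of the intensity step as a covariate 3 of 9 fell, Nkg7 among them at -1.50 (limma adjusted p = 0.0309). Of the 8 leukocyte markers 1 fell, Coro1a at -1.84, with Ptprc at -0.85 (limma adjusted p = 0.213), and of 13 macrophage and monocyte markers 1 fell, Cd14 at -1.43. Of 11 markers of fibroblasts and stellate cells, some of which can carry Thy1, 3 fell, with Col1a2 at -2.54, and of 10 dendritic cell markers 3 fell, with Flt3 at -1.51. Without the HFD16 arrays the lower genes were 6 of 8 leukocyte markers, 6 of 13 macrophage and monocyte markers, 3 of 11 fibroblast and stellate cell markers and 7 of 10 dendritic cell markers. The summed normalized intensity of the fibroblast and stellate cell markers was 91074.8 to 138882 in PTFC, 108537 to 142855 in HFD24, 81728.7 to 157278 in HFD16 and 40963.2 to 73523.2 in ND, and that of the dendritic cell markers 77155.2 to 137956 in PTFC, 159762 to 197096 in HFD24, 156319 to 194589 in HFD16 and 67033.1 to 89137 in ND. The part of these cells in the fall of Cd5 and Thy1 was not tested. Most of the summed intensity of the dendritic cell markers came from Bst2, so that it does not describe the list as a whole. Mean normalized log2 intensity of Bst2 was 16.44 in PTFC and 17.33 in HFD24. It was 11.83 and 13.61 for H2-Ab1, and 6.98 and 8.48 for Flt3. Which cells the signal of Bst2 comes from was not tested.

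High-fat feeding for 16 weeks was compared with the same ND arrays, so that the 2 comparisons with ND are not independent. Nkg7, Cd5, Thy1, Gzma and Gzmb rose in HFD16 against ND, by 4.47-fold, 4.51-fold, 3.44-fold, 2.56-fold and 4.27-fold. These were 5 of 9 genes, where 10.0% of all genes passed upward, and 0 of 9 fell by limma, where 8.11% of all genes did. The differences were 2.16 ± 0.45 for Nkg7 (log2, SE, n = 3 per group; limma adjusted p = 0.00795), 2.17 ± 0.44 for Cd5 (0.00695), 1.78 ± 0.37 for Thy1 (0.00826), 2.10 ± 0.51 for Gzmb (0.0150) and 1.36 ± 0.43 for Gzma (0.0449). Cd3g stood at 1.21 ± 0.41 (limma adjusted p = 0.0574), Cd4 at 0.67 ± 0.30 (0.132) and Cd3e at 0.12 ± 0.19 (0.681), none of which passed. HFD16 lay above ND without overlap for 5 of 9 genes, Nkg7, Cd5, Thy1, Cd4 and Gzmb, after normalization, against 16.9% of all genes, and on the deposited scale for the first 3 of these, against 11.2%. The median difference was 1.36, against -0.03 for all genes. The call depended on the HFD16 arrays for both granzymes and not for the 3 surface molecules. Without HFD16 replicate 1, 7 of 9 genes rose (9.80% of all genes), and without replicate 2 or replicate 3 it was 3 of 9 (6.19% and 5.06% of all genes), namely Nkg7, Cd5 and Thy1. Nkg7 stood at 2.83 without replicate 1 and at 1.54 without replicate 2. Gzmb also lost its call without ND replicate 1 (limma adjusted p = 0.0528), and Gzma lost it in 7 of the 12 fits that each left out 1 array. With the log2 of the intensity step as a covariate no marker gene passed, and Nkg7 stood at 1.17 (limma adjusted p = 0.272).

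**Figure D4:**
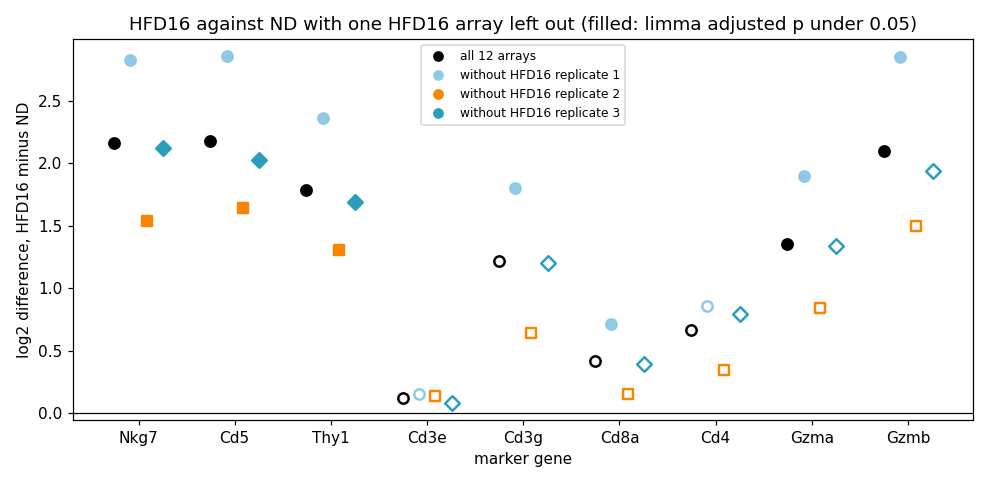
Log2 difference of HFD16 from ND for each marker with all 12 arrays and with each HFD16 array left out in turn, filled at a limma adjusted p under 0.05. Nkg7, Cd5 and Thy1 are filled in all 4 settings, Gzma and Gzmb are filled with all arrays and without replicate 1, and the difference of each of these 5 genes is smallest without replicate 2.

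HFD24 and HFD16 did not differ detectably in any marker gene. By limma 0 of 9 genes passed, where 0.0367% of all genes did, and 0 of 9 had an unadjusted p under 0.05, where 9.78% of all genes did. Differences ran from -0.66 for Gzmb to 0.39 for Gzma. The 95% intervals reached -1.76 for Gzmb, -1.29 for Cd3g and 1.32 for Gzma, so that differences up to these sizes were not excluded. Age and duration of the diet cannot be told apart in this comparison.

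PTFC and ND were compared to show how far the treated livers lay from the normal diet. By limma 0 of 9 marker genes passed, where 2.33% of all genes did, and 0 of 9 had an unadjusted p under 0.05, where 17.1% of all genes did. Nkg7 at 0.87 ± 0.45 (log2, SE; 95% interval -0.10 to 1.84; limma adjusted p = 0.352) and Thy1 at 0.37 ± 0.37 (interval -0.44 to 1.18; limma adjusted p = 0.702) lay above ND without overlap after normalization, as 10.0% of all genes did, and on the deposited scale Cd5 and Gzmb did too (14.7% of all genes). Without the HFD16 arrays 1 of 9 genes passed upward, Nkg7 (limma adjusted p = 0.0384), where 1.92% of all genes did. The median of the 9 genes was 0.31, against -0.01 for all genes. PTFC against ND shares its arrays with the comparisons above, and the intervals do not show that PTFC and ND were alike.

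An F test over the 4 groups was passed by 5 of 9 marker genes, Cd5 (limma adjusted p = 0.00537), Thy1 (0.00787), Nkg7 (0.00826), Gzmb (0.0273) and Gzma (0.0294), against 21.4% of all genes. Cd3g (0.0999), Cd4 (0.302), Cd8a (0.456) and Cd3e (0.639) did not pass.

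Deviations of the arrays from their group means were set against each other for pairs of genes, as a description over arrays on which all genes share the same RNA and scaling. Over 12 arrays r was 0.97 between Nkg7 and Cd5, 0.97 between Nkg7 and Thy1, 0.96 between Cd5 and Thy1 and 0.93 between Thy1 and Cd3g. Without the 3 HFD16 arrays the same pairs had 0.78, 0.72, 0.61 and 0.45 over 9 arrays, so that the high values rested on the HFD16 arrays. Cd3e had r between -0.15 and 0.21 to each of the other 8 genes over 12 arrays.

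For each gene that passed the F test, the 3 other genes whose log2 values followed it most closely over the 12 arrays were taken from 14306 genes, with the dimmest 25% and the markers themselves left out. Nkg7 was followed by Itgb7, an integrin chain of gut-homing lymphocytes (Pearson r = 0.991), Rasgrp1, an activator of Ras in T cells (0.986), and Ptpn22, a phosphatase that restrains T cell receptor signals (0.985). Cd5 was followed by Cd247, the zeta chain of the T cell receptor complex (0.988), Rnase6, a secreted ribonuclease (0.987), and Icosl, the ligand of Icos (0.985). Thy1 was followed by Slamf8, a receptor of myeloid cells (0.993), Icosl (0.985) and Ccdc88b (0.983). Gzma was followed by Gpr18, a receptor of lymphocytes (0.967), Ctsw, a protease of cytotoxic lymphocytes (0.956), and Il2rb, the beta chain of the interleukin-2 receptor (0.952). Gzmb was followed by Clmp, an adhesion molecule (0.966), Skap2, a signalling adaptor (0.953), and Meiob, a meiosis protein (0.953). Without the HFD16 arrays these 15 values of r lay between 0.894 and 0.997 over 9 arrays. Genes of T cells, of myeloid cells and of other tissues thus stood side by side in these lists, and the differences between group means enter every r.

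Further genes of T and NK cells came from 5 lists, each described by its counts. Of all genes 9.97% passed upward and 8.28% downward in HFD24 against ND, 2.96% and 3.04% in PTFC against HFD24, and 10.0% and 8.11% in HFD16 against ND, and a count near these shares is no result about a list. For PTFC against HFD24, 1 gene of 24 is close to that share. In PTFC against ND 2.33% of all genes passed in either direction, 199 upward and 246 downward. A count of 1 gene there is no result about a list. Of 24 genes of the T cell receptor and its signalling, 9 rose and 2 fell in HFD24 against ND, with a median of 0.97. Il7r, the receptor of interleukin-7, stood at 2.28 ± 0.30 (log2, SE; limma adjusted p = 7.03e-04), Lcp2, an adaptor of receptor signalling, at 2.47, Ptpn22 at 2.11 and Icos, a costimulatory receptor, at 1.84. Chosen after their values were seen, the remaining chains of the CD3 complex, Cd3d at 2.20 and Cd247 at 2.57, rose as well, while Cd3e and Cd3g did not pass. The 2 genes that fell, also chosen in this way, were Zap70, the kinase that binds the zeta chain, at -1.35 (limma adjusted p = 0.00587) and Ubash3a, a suppressor of the same signal (limma adjusted p = 0.0266). In HFD16 against ND 11 rose, and the same 2 fell, at -1.51 and -1.60. Between PTFC and HFD24 1 of 24 fell, Icos at -1.47 ± 0.37 (limma adjusted p = 0.0382), with a median of -0.66, and Lcp2 stood at -1.50 (limma adjusted p = 0.0539). In PTFC against ND 1 rose, Il7r at 1.42 (limma adjusted p = 0.0302).

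Of 10 transcription factors 3 rose and 1 fell in HFD24 against ND. Runx3, which directs the cytotoxic programme, stood at 2.62 ± 0.42 (log2, SE; limma adjusted p = 0.00161), Prdm1, a factor of effector cells, at 1.04 and Bcl11b, a factor of T cell identity, at 0.93, whereas Tox, a factor of T cell exhaustion, fell at -0.68. Tox was far brighter than Bcl11b, with deposited intensities of 3213 to 3807 against 89 to 117 in ND. Which cells the signal of Tox comes from was not tested. Set against HFD24, PTFC had 1 lower factor, Runx3 at -1.82 ± 0.42 (limma adjusted p = 0.0295), and Tox stood at 0.63 (limma adjusted p = 0.0524). In HFD16 against ND Runx3, Prdm1 and Bcl11b rose and Tox and Foxp3, the factor of regulatory T cells, fell, with Foxp3 at -0.48, a gene outside the naming rule that was chosen after its values were seen.

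Of 14 NK receptors 5 rose and 1 fell in HFD24 against ND, with a median of 0.15. Klrd1 (CD94) stood at 2.10 ± 0.45 (log2, SE; limma adjusted p = 0.00688), Klre1 at 1.10, Il2rb at 0.81 and Klra8 at 0.81, all of them receptors of NK cells. Fcgr3 at 2.68, an Fc receptor that macrophages carry too, also rose, and Cd226 fell at -0.58, chosen after its values were seen. Of the 14, 2 fell in PTFC against HFD24, Klre1 at -1.04 ± 0.22 (limma adjusted p = 0.0239) and Klra8 at -1.08 ± 0.24 (limma adjusted p = 0.0287). In HFD16 against ND 3 rose, Klrd1 at 1.80, Klre1 at 0.91 and Fcgr3 at 2.00. In PTFC against ND 1 fell, Klrg1 at -0.81, again chosen after its values were seen.

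Of 13 genes of cytotoxic granules and effector molecules 6 rose and 1 fell in HFD24 against ND, with a median of 0.85. Srgn, the proteoglycan that packs granules, stood at 1.92 ± 0.30 (log2, SE; limma adjusted p = 0.00142), Ctsc, which activates granzymes, at 1.43 and Xcl1, a chemokine of NK and T cells, at 1.48, whereas Gzmm, granzyme M, fell at -0.69. Of the 13, 1 fell in PTFC against HFD24, Xcl1 at -1.38 ± 0.37 (limma adjusted p = 0.0450), and Srgn stood at -1.02 (limma adjusted p = 0.0598). In HFD16 against ND Srgn, Ctsc, Xcl1 and Ctsw rose and Gzmm fell, Ctsw at 1.26 being chosen after its values were seen. The pore-forming protein Prf1, likewise chosen, did not pass in HFD24 against ND (0.31, limma adjusted p = 0.384).

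Of 12 genes that guide T and NK cells into or out of tissue 7 rose and none fell in HFD24 against ND, with a median of 1.58. Cxcl9, a chemokine that attracts T cells, stood at 4.76 ± 0.78 (log2, SE; limma adjusted p = 0.00180) on one probe and 3.07 on another, Ccl4 at 3.09 and Ccl3 at 2.65, chemokines made by several leukocytes, and Ccr7, a lymph node homing receptor, at 1.43. In HFD16 against ND 9 of 12 rose. Of the 12, 4 fell in PTFC against HFD24, with a median of -1.18, namely Ccl3 at -1.64 ± 0.29 (limma adjusted p = 0.0180), S1pr1, the receptor for exit from tissue, at -1.14, Ccl4 at -1.99 and Ccr7 at -1.20. S1pr1 was the brightest of these 4, with a mean log2 of 12.13 in PTFC and 13.26 in HFD24. It did not pass in HFD24 against ND (0.45, limma adjusted p = 0.197), and which cells its signal comes from was not tested. One gene of this list was at 0 on at least 1 array in PTFC, HFD24 and ND. Without the HFD16 arrays, the genes that fell in PTFC against HFD24 were 12 of 24 of the receptor and signalling list, 4 of 10 transcription factors, 4 of 14 NK receptors, 4 of 13 cytotoxic genes and 8 of 12 homing genes, where 4.60% of all genes fell. In HFD24 against ND 14, 5, 5, 8 and 7 genes of these lists rose without the HFD16 arrays, where 10.1% of all genes rose. In the same fit 2, 1, 1, 1 and 0 of their genes fell. The summed normalized intensity of the receptor and signalling list was 13646 to 19374 in HFD24 and 15674 to 21559 in ND. For transcription factors it was 6638 to 8425 and 7817 to 9558, and for cytotoxic genes 220807 to 271395 and 174976 to 233596. These sums overlapped. NK receptors had 5843 to 11576 and 2540 to 3740, and homing genes 35084 to 49428 and 14085 to 18776, without overlap. Beside these 5 lists the medians of all genes were -0.06 in HFD24 against ND, 0.01 in PTFC against HFD24 and -0.03 in HFD16 against ND.

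**Figure D5:**
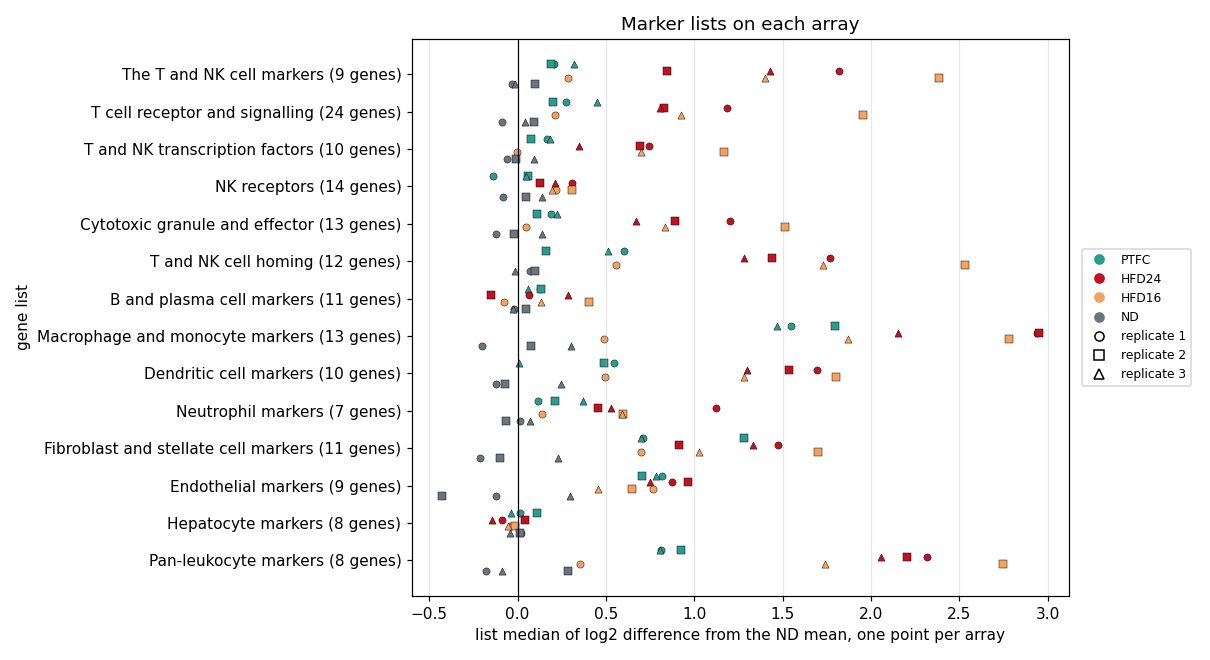
Median log2 difference from the ND mean over the measured genes of each list (rows), one point per array, coloured by group and shaped by replicate. HFD16 replicate 2 is the highest point for the T and NK cell markers at 2.39, the HFD24 arrays lie at 0.85 to 1.82 there, and the hepatocyte markers lie within 0.15 of 0 on all arrays.

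Promoter sequence was available from RefSeq (GRCm38.p6) for 7 of the 9 genes, as the 250 bases before the start. The windows below are shown because 4 of the genes rose on the high-fat diet in at least 1 comparison and Cd3e did not. Each is written 5′ to 3′ on the strand of its gene, and capitals mark every match, on either strand, to the motifs named below.
Nkg7 chr7:43436888-43437137 (plus strand): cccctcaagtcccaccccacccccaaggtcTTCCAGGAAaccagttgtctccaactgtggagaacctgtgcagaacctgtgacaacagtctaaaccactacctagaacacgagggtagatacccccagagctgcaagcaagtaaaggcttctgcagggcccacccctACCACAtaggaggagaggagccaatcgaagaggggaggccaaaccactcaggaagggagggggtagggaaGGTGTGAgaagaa
Gzma chr13:113100982-113101231 (minus strand): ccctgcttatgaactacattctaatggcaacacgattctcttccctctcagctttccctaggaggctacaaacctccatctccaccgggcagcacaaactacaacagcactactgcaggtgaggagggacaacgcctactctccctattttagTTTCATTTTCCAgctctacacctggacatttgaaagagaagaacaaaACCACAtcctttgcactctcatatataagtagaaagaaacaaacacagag
Gzmb chr14:56262335-56262584 (minus strand): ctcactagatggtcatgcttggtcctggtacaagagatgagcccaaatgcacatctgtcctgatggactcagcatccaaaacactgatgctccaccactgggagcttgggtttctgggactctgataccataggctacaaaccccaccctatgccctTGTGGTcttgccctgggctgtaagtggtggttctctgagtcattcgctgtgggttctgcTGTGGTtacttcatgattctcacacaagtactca
Cd5 chr19:10738975-10739224 (minus strand): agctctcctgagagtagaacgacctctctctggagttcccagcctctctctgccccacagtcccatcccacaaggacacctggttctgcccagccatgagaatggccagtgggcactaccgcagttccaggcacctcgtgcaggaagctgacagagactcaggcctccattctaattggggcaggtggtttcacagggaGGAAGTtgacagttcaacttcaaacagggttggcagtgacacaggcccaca
Cd3e chr9:45009612-45009861 (minus strand): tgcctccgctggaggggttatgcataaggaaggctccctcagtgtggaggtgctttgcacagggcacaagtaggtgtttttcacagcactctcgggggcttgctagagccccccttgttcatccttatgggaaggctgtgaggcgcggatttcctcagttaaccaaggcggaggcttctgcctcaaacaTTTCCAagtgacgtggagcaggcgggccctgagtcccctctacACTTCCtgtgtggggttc
The RUNX letters TGTGGT were present in Nkg7, Gzma and Gzmb, at 2 places in Gzmb, and in 14.05% of all 32851 promoter windows. The ETS core GGAAGT was present in Cd5 and Cd3e and in 19.74% of all windows. The NFAT letters TGGAAA were present in Gzma, Cd3e and Cd3g and in 18.58% of all windows, and the interferon-stimulated response element in Gzma and in 2.977%. In Gzma these last matches overlap each other. The T-box letters GGTGTGA were present in Nkg7 and in 3.333% of all windows, and the interferon gamma activation pattern TTCNNNGAA in Nkg7 and in 7.02%. The letters TATAAA were in none of the 7 windows and in 12.37% of all. The window of Cd8a held none of the 7 motifs. Matches were sought on both strands. A match is a description of letters in these windows, not a site or a cause.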

How the data were processed

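Total RNA of whole liver was measured on 12 arrays of 1 colour (Cy5), 3 per group, after a fast of 12 hours, in a study of 24 mice with 6 per group. Each deposited array holds 26423 probes with a linear intensity, as the values themselves show. The authors' background subtraction, scaling, averaging of spots and genome build are not given in the sources used here. Among these probes, 21876 had exactly 1 gene symbol and the other 4547 did not. Symbols were updated through the Entrez identifier with the RefSeq table of GRCm38.p6. Values below 0, of which there were 291, were set to 0. Then log2(intensity + 1) was quantile normalized over all probes, and the probe with the highest mean stood for its gene (19084 genes). A model of 4 group means was fitted to all 12 arrays by lmFit, contrasts.fit and eBayes with trend, from limma 3.58.1 under R 4.3.3, with no replicate block. Tests were two-sided, with Benjamini-Hochberg adjustment over all genes and a threshold of 0.05, and ± after a difference is the SE. The script was tested on simulated data. The number of arrays limits the precision.

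The members and gene lists were chosen with earlier results of these data known. Named genes were all members with a probe, and from each of 13 lists up to 4 genes of smallest p in HFD24 against ND and up to 2 in PTFC against HFD24, with Ptprc always. Of 168 list entries 150 were measured. Lists of dendritic cells, neutrophils, fibroblasts and stellate cells and endothelium are given under the other observations. Protein sequences were not used here. Alternatives covered the pseudocount, a filter on dim genes, normalization, the probe of a gene, the replicate block, the arrays in the fit, the prior variance, the intensity step and each array left out.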

Additional observations from a re-analysis of the deposited data

How the results depend on the processing

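Most member results kept their direction and their side of the threshold: of 512 single-gene values under settings other than leaving out 1 array, 458 did, and of 540 with 1 array left out, 485. No called difference changed sign in either set. PTFC against HFD24 had 2 members passing in the fit reported. It gave 1 member with the mean of all probes, with eBayes without trend and with quantile normalization over the named probes alone. It also gave 1 without the dimmest 25% of genes, where Cd5 was among the genes removed and Thy1 still passed. On the authors' scale it gave 0, and 5 with only the arrays of the 2 groups (1745 genes) or with the HFD16 arrays left out. The setting without the HFD16 arrays and that of the named probes were chosen after seeing the data. PTFC against ND gave 1 member without HFD16, and the F test 3 on the authors' scale. HFD24 against HFD16, with 7 genes, gave 3 without the dimmest genes and on the authors' scale, 4 with median centring and 0 with 2 groups only, and PTFC against ND gave 229 genes with median centring, against 445.

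With the log2 intensity step as a covariate, HFD24 against ND gave 1086 genes and 0 members, HFD16 against ND 219 and 0, PTFC against HFD24 3 members, PTFC against ND 54 genes, HFD24 against HFD16 11, and the F test 2038 genes and 3 members. The step differs between the groups and also within them, at 1.04, 0.675 and 1.05 on HFD16 replicates 1, 2 and 3. With group means in the model, the slope of the covariate comes from the variation within groups. The part of the step in the differences between groups was not tested. Differences that changed sign there, none of them called, were in PTFC against ND Nkg7 (-0.00122), Cd5 (-0.44), Thy1 (-0.23), Cd3g (-0.59), Cd4 (-0.26), Gzma (-0.13) and Gzmb (-0.78), in HFD24 against ND Cd4 (-0.061), in PTFC against HFD24 Cd3e (-0.00278), in HFD16 against ND Cd3e (-0.058) and in HFD24 against HFD16 Thy1 (0.091). Elsewhere HFD24 against HFD16 changed sign for Cd5 with a pseudocount of 32 (-0.039), Cd8a with the mean of probes (-0.053) and Thy1 on the authors' scale (0.00604). Median centring turned Cd3e in HFD24 against ND (0.068) and PTFC against HFD24 (-0.28), and the authors' scale turned Cd4 in HFD24 against ND (-0.061) and Cd8a (0.31) and Cd4 (0.31) in PTFC against HFD24.

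With 1 array left out, genes past the test ranged from 1734 to 4939 in HFD24 against ND, 11 to 1973 in PTFC against HFD24, 1339 to 4516 in HFD16 against ND, 3 to 10 in HFD24 against HFD16, 58 to 658 in PTFC against ND and 2219 to 5186 in the F test. Members ranged from 0 to 5 in PTFC against HFD24, 3 to 7 in HFD16 against ND, 3 to 6 in HFD24 against ND and 3 to 6 in the F test. Uncalled differences that changed sign ranged in HFD24 against HFD16 from -0.53 to 0.76 (Nkg7), -0.68 to 0.54 (Cd5), -0.62 to 0.44 (Thy1), -0.98 to 0.18 (Cd3g), -0.28 to 0.28 (Cd8a) and -0.14 to 0.91 (Gzma). In PTFC against HFD24 they ranged from -0.14 to 0.24 (Cd3e) and -0.42 to 0.091 (Cd4), in HFD24 against ND from -0.36 to 0.026 (Cd3e), and in PTFC against ND from -0.040 to 0.20 (Cd3g) and -0.13 to 0.28 (Cd4).

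The labels number replicates 1 to 3 in each group without pairing them. Deviations of same-numbered arrays correlated between -0.29 and 0.17, and 1, 2 and 1 of the 6 pairs of replicates 1, 2 and 3 exceeded 0.1. Differently numbered arrays were not set beside them, so these values cannot show whether same-numbered arrays share more than the number. With the replicate block PTFC against HFD24 gave 337 genes and 0 members, against 1145 and 2, and HFD24 against HFD16 gave 4 genes.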

Other observations

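Over all genes, 9.97% passed upward and 8.28% downward by limma in HFD24 against ND, and 2.96% and 3.04% in PTFC against HFD24. A count of 1 gene in lists as short as those below is no result about the list. Dendritic cell markers rose in 7 of 10 cases in HFD24 against ND, with a median of 1.40, among them H2-Ab1, a chain of MHC class II, at 3.61 ± 0.61 (log2, SE; limma adjusted p = 0.00211), Flt3 at 1.84, Itgax at 1.76 and Bst2 at 1.18. Of the 10, 3 fell in PTFC against HFD24, Flt3 at -1.51 ± 0.35 (limma adjusted p = 0.0300), Itgax at -1.31 and Bst2 at -0.89. Neutrophil markers rose in 4 of 7 cases in HFD24 against ND, S100a9, a calcium-binding alarmin, at 2.73, Csf3r, the receptor of G-CSF, at 1.93, Retnlg at 1.52 and Cxcr2, a chemokine receptor, at 0.60. Cxcr2 belonged to the dimmest 25% of genes. Its deposited intensities overlapped, at 40.9, 46.1 and 44.4 in HFD24 and 45.4, 40.7 and 33.4 in ND. In PTFC against HFD24 1 of 7 fell, S100a9 at -1.73 (limma adjusted p = 0.0413).

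Markers of fibroblasts and stellate cells rose in 7 of 11 cases and fell in 1 in HFD24 against ND. Col1a2 stood at 3.69 ± 0.54 (log2, SE; limma adjusted p = 0.00111), Col3a1 at 3.31, Lrat, an enzyme of stellate cells, at 2.24 and Pdgfrb at 1.65, whereas Col1a1, chosen after its values were seen, fell at -0.91. Of the 11, 3 fell in PTFC against HFD24, Col1a2 at -2.54, Col3a1 at -2.14 and Pdgfrb at -1.50. Endothelial markers rose in 5 of 9 cases in HFD24 against ND, Lyve1 at 3.03, Cdh5 at 1.25, Stab2 at 1.04, Clec4g at 0.75 and Tek at 1.18, the last chosen after its values were seen, and 0 of 9 passed in PTFC against HFD24 by limma. Of 8 hepatocyte markers 1 fell in HFD24 against ND, Tat at -0.87, and 0 of 8 passed in PTFC against HFD24. Of 11 B and plasma cell genes, Cd79a at 1.04 and Fcer2a at 0.94 rose and Ms4a1 at -1.08 fell in PTFC against HFD24.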
